A study of Mus musculus with 4 samples.

Results

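The YAP and TEAD pathway was described here through 10 genes, found by their symbols among the 54838 named genes of the deposited tables. They are the co-activators Yap1 and Wwtr1 (the gene of TAZ), the DNA-binding factors Tead1 and Tead4, and Ptpn14, Asap1, Ankrd1, Amotl2, Lats2 and Ajuba, which are known as targets, regulators or both. YAP and TAZ do not bind DNA themselves. They enter the nucleus, attach to a TEAD factor and switch on genes of growth and the cytoskeleton, unless the Hippo kinases phosphorylate them and hold them in the cytoplasm. In the liver the Hippo kinases restrain organ size, and loss of that restraint is known to produce liver tumours in mice. Much of its control is exerted on the proteins, by phosphorylation, location and stability, which RNA levels do not show.

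The study sequenced total RNA of Hepa1-6, a mouse hepatocellular carcinoma line. One group carried an shRNA against Setdb1 (genotype labelled Setdb1 knockdown, 2 libraries, called knockdown), and the other an shRNA labelled NC (genotype labelled Setdb1 Wild type, 2 libraries, called control). Setdb1 encodes a methyltransferase for lysine 9 of histone H3 that silences retroelements and genes. The series calls the cells subclones, and the labels give neither their number nor whether each library had its own culture. The p-values therefore speak only for the scatter among these 4 libraries, perhaps a technical one. A difference between subclones cannot be told apart from the effect of the shRNA.

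Each library held 19513567 to 19615440 expected counts. Setdb1 had 215 and 168 expected counts in knockdown libraries, against 1003 and 1160 in control libraries (log2 fold change -2.49, SE 0.182, adjusted p = 1.495e-04 in edgeR's quasi-likelihood test with Benjamini-Hochberg adjustment). Among 12821 genes tested, 764 passed an adjusted p of 0.05 (5.96%), 538 higher in knockdown cells (4.2%) and 226 lower (1.76%). Without the filter on low counts edgeR called no gene, Setdb1 included (adjusted p = 0.0877), although 3379 genes had an unadjusted p under 0.05 and DESeq2 on the filtered genes called 896. This holds for every call given below. Levels are given below as TPM, a value corrected for transcript length and scaled to one total in every library. Of 12 hepatocyte and hepatoma markers 9 were tested, of which 2 rose, 2 fell and 5 did not pass. Alb rose to 856 and 732 TPM in knockdown libraries, against 429 and 432 TPM in control libraries (adjusted p = 0.00563), and Gpc3 to 4.25 and 4.06 TPM in knockdown libraries, against 0.860 and 0.590 TPM in control libraries (adjusted p = 0.00135). Hnf4a fell to 101 and 95.1 TPM in knockdown libraries, against 166 and 169 TPM in control libraries (adjusted p = 0.0302), and Apob to 13.7 and 10.2 TPM in knockdown libraries, against 21.2 and 20.04 TPM in control libraries (adjusted p = 0.0122). The list summed to 4098 and 3693 TPM in knockdown libraries and 3612 and 3955 TPM in control libraries, while Ttr, Apoa1, Serpina1a and H19 stayed under 1 TPM in every library. All 6 endothelial markers, 7 of 10 fibroblast markers and 5 of 7 leukocyte markers stayed under 1 TPM in every library. Of the fibroblast markers Col1a1 rose, to 0.660 and 0.880 TPM in knockdown libraries, against 0.180 and 0.170 TPM in control libraries (adjusted p = 0.00652). The most abundant was decorin, Dcn, with 1372 and 1345 TPM in knockdown libraries and 1227 and 1338 TPM in control libraries. Pdgfra had 4.10 and 2.49 TPM in knockdown libraries and 3.11 and 4.33 TPM in control libraries. Des had 1.20 and 0.600 TPM in knockdown libraries and 0.640 and 0.990 TPM in control libraries. At most 1 expected count stood in any library for Col1a2, Col3a1, Pdgfrb and Lum. In bulk RNA, fewer cells with a transcript and less of it per cell cannot be told apart.

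All 10 members passed the filter on low counts, and all had whole expected counts in all 4 libraries (within 0.005 of an integer), so no sign of reads split with another feature was seen. With the knockdown, 1 rose (Ptpn14), 1 fell (Asap1) and 8 did not pass the test. That is 2 of 10, beside 5.96% of all genes tested. The median log2 fold change of the 10 was 0.01, beside -0.01 over all genes tested, and their median absolute log2 fold change was 0.16, beside 0.22. The co-activators, both TEAD factors and the widely used target gene Ankrd1 were all among the 8 that did not pass.

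**Figure D1:**
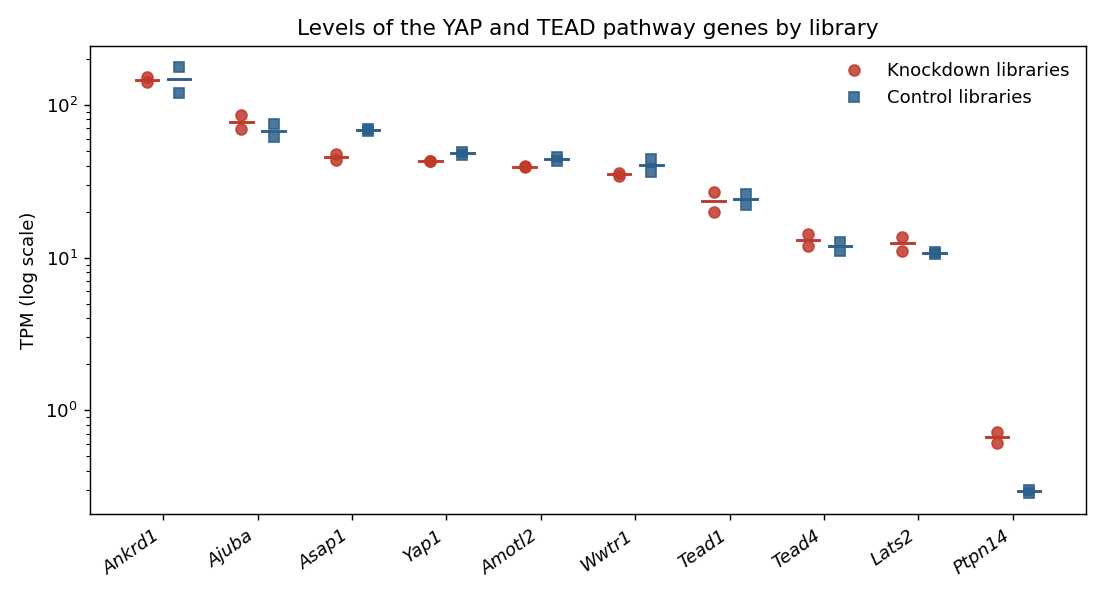
TPM of each of the 10 genes (log axis, genes ordered by mean level) in the 2 knockdown libraries (circles) and the 2 control libraries (squares), with bars at the group means. Ptpn14, below 1 TPM, and Asap1 show a gap between the groups, and the levels span from 0.29 TPM for Ptpn14 to 176 TPM for Ankrd1.

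The 10 genes differed far more from each other than between the groups. By mean TPM over the 4 libraries the order was Ankrd1 (147 TPM), Ajuba (72.5), Asap1 (57.1), Yap1 (45.5), Amotl2 (41.7), Wwtr1 (37.7), Tead1 (23.7), Tead4 (12.4), Lats2 (11.5) and Ptpn14 (0.480). Within each library every neighbour in this order stood above the next, except that Ajuba was below Asap1 in control 2 (61.0 and 67.4 TPM). The ranges over the 4 libraries were apart for Ankrd1 and Ajuba, Wwtr1 and Tead1, Tead1 and Tead4, and Lats2 and Ptpn14, and overlapped for the other neighbours.

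The co-activators were close to each other in level and differed little between the groups. Yap1 (chromosome 9, 7931999 to 8004596, minus strand, GRCm38) had 43.1 and 42.8 TPM in knockdown libraries, against 48.8 and 47.2 TPM in control libraries. The 2 groups did not overlap, as in 51.6% of all genes tested, yet the difference was small. Its log2 fold change was -0.12 (SE 0.130, 95% interval -0.41 to 0.17, adjusted p = 0.648 in edgeR), an interval that runs from 0.752 to 1.13 times the control level.

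Wwtr1 (chromosome 3, 57455649 to 57575910, minus strand) had 34.2 and 35.9 TPM in knockdown libraries, against 44.3 and 36.5 TPM in control libraries. The knockdown values lay below both controls in TPM, but the expected counts, 2424 and 2537 in knockdown and 3053 and 2469 in control libraries, overlapped. Its log2 fold change was -0.14 (SE 0.148, 95% interval -0.48 to 0.19, adjusted p = 0.633), and it turned to 0.029 when control 1 was left out. Yap1 exceeded Wwtr1 in each library, by 1.26 and 1.19 times in knockdown libraries and 1.10 and 1.29 times in control libraries, so the balance of the 2 co-activators overlapped between the groups.

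Neither TEAD gene, whose products carry the co-activators to DNA, passed the test. Tead1 (chromosome 7, 112679318 to 112906807, plus strand) had 19.8 and 26.9 TPM in knockdown libraries and 22.1 and 26.1 TPM in control libraries (log2 fold change -0.03, SE 0.168, 95% interval -0.40 to 0.35, adjusted p = 0.957). The groups overlapped, and the sign turned when knockdown 1 or control 2 was left out (log2 fold changes 0.17 and 0.08). Tead4 (chromosome 6, 128224288 to 128300823, minus strand) had 11.9 and 14.2 TPM in knockdown libraries and 11.03 and 12.62 TPM in control libraries, which overlapped as well (log2 fold change 0.18, SE 0.171, 95% interval -0.21 to 0.56, adjusted p = 0.613).

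The 2 TEAD genes among the members were not the most abundant of the family. Tead2, named after its values were seen, had 75.5 and 83.2 TPM in knockdown libraries and 78.6 and 89.1 TPM in control libraries, above the other three paralogs in each library. Its share of the summed TEAD level was 63.4% and 61.9% in knockdown libraries and 65.9% and 66.5% in control libraries. Tead1 held 16.6% and 19.98% in knockdown libraries and 18.5% and 19.51% in control libraries. Tead4 held 9.98% and 10.6% in knockdown libraries and 9.25% and 9.42% in control libraries. The 4 genes summed to 119 and 134 TPM in both groups.

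Tead3, also named after its values were seen, had 11.9 and 10.1 TPM in knockdown libraries, against 7.65 and 6.08 TPM in control libraries. The groups did not overlap, and its share of the TEAD level was 10.02% and 7.53% in knockdown libraries and 6.41% and 4.54% in control libraries. Its log2 fold change of 0.66 (SE 0.198, 95% interval 0.21 to 1.10) had an adjusted p of 0.0902 in edgeR over all genes, so it was not called.

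**Figure D2:**
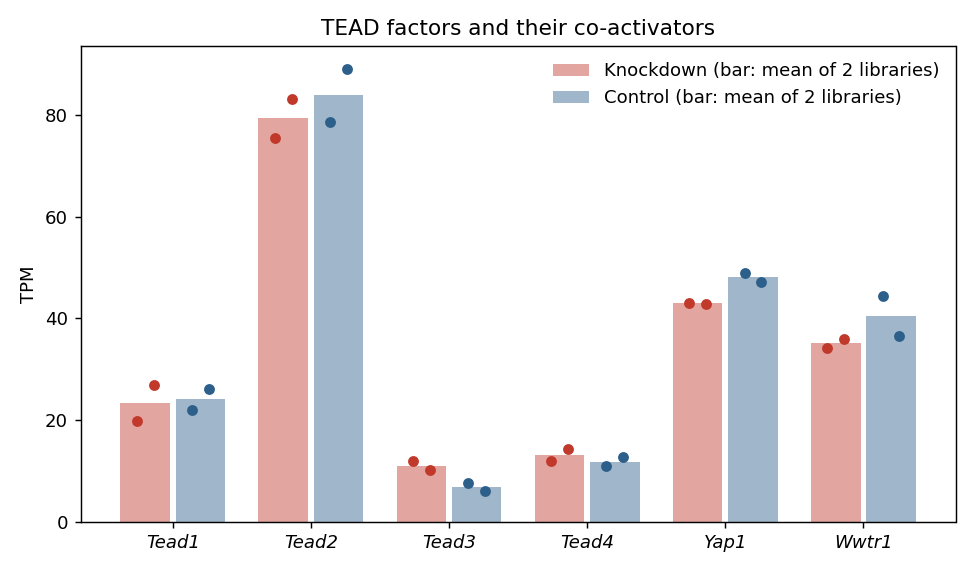
TPM of the 4 TEAD genes and of Yap1 and Wwtr1 (points, single libraries; bars, means of 2 libraries; knockdown left of control). Tead2 is the highest TEAD gene in both groups, and the points of the groups overlap for Tead1, Tead2 and Tead4.

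Ptpn14 was the member with the largest change. It encodes a protein tyrosine phosphatase that binds YAP and holds it in the cytoplasm, and it is itself listed among YAP target genes. Its expected counts were 100 and 121 in knockdown libraries, against 46 and 45 in control libraries, or 0.610 and 0.720 TPM in knockdown libraries and 0.300 and 0.290 TPM in control libraries. Both knockdown libraries thus lay above both controls, at a level that remained the lowest of the 10 genes in all 4 libraries. The log2 fold change was 1.29 (SE 0.260, 95% interval 0.71 to 1.87, adjusted p = 0.0197 in edgeR), or 2.44 times the control level with an interval of 1.63 to 3.66 times. The call ended without knockdown 2 (log2 fold change 1.14, adjusted p = 0.0765) and with limma on log2(TPM + 1), where the fold change of so low a gene is compressed (0.36, adjusted p = 0.190), or on log2(TPM + 0.1) (0.95, adjusted p = 0.179).

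The gene lies on chromosome 1 (189728268 to 189876695, plus strand). Its 3 tested neighbours within 200 kb did not pass the test, and no locus named by position stands within it. RSEM's transcript length, averaged over isoforms by their estimated abundance, was 10449 and 10746 bases in knockdown libraries and 10144 and 10287 bases in control libraries. The 250 bases before its RefSeq start are shown because it is the member that rose and because they hold one copy of the 6-base TEAD recognition motif, in capitals (GRCm38.p6, chr1:189728018-189728267, plus strand).
Ptpn14: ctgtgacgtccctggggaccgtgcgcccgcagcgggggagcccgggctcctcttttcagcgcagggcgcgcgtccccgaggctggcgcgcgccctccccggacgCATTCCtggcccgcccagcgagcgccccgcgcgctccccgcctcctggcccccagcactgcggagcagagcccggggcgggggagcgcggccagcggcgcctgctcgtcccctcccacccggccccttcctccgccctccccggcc

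Asap1 was the member that fell. It encodes a GTPase-activating protein for Arf proteins that acts on the actin cytoskeleton and focal adhesions, and it is listed among YAP and TAZ target genes of cancer cells. It had 47.7 and 43.3 TPM in knockdown libraries, against 69.8 and 67.4 TPM in control libraries, and expected counts of 3383 and 2822 in knockdown libraries and 4959 and 4586 in control libraries. The knockdown libraries lay below both controls on both scales. The log2 fold change was -0.61 (SE 0.141, 95% interval -0.93 to -0.29, adjusted p = 0.0353 in edgeR), which leaves 0.655 times the control level with an interval of 0.526 to 0.815 times.

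The Asap1 call ended without knockdown 2 (log2 fold change -0.49, adjusted p = 0.164) and with limma on log2(TPM + 1) (-0.58, adjusted p = 0.0634) or log2(TPM + 0.1) (-0.59, adjusted p = 0.0661). The gene spans chromosome 15 from 64086857 to 64382919 on the minus strand and has 19 transcripts in the tables. Its mean transcript length was 4693 and 4350 bases in knockdown libraries and 4829 and 4718 bases in control libraries. The only tested neighbour within 200 kb did not pass.

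**Figure D3:**
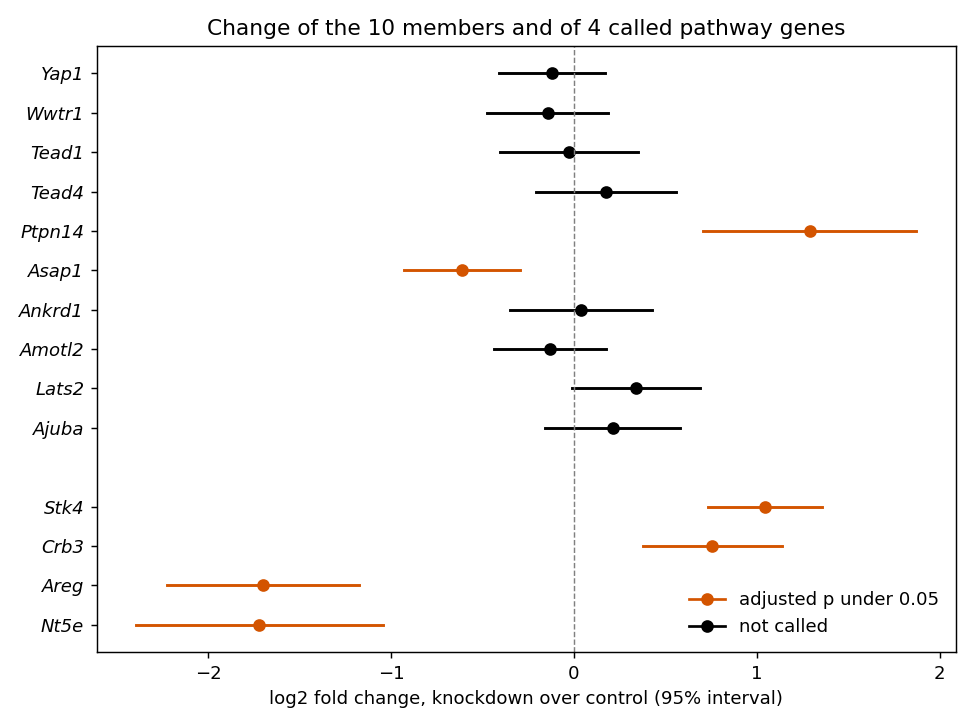
Log2 fold change (knockdown over control) with its 95% interval for the 10 members, in the order of their roles, and for the 4 other pathway genes that passed the test. Orange marks an adjusted p under 0.05: Ptpn14, Stk4 and Crb3 lie above 0, Asap1, Areg and Nt5e below, and the intervals of the 8 other members include 0.

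The other target genes did not pass. Ankrd1, which encodes a stress-inducible ankyrin repeat protein and is a standard readout of YAP and TEAD activity, had 140 and 151 TPM in knockdown libraries, against 120 and 176 TPM in control libraries. Both knockdown values lay between the 2 controls. Its log2 fold change was 0.04 (SE 0.174, 95% interval -0.35 to 0.43, adjusted p = 0.929) and it changed sign without control 1 (-0.20) or without knockdown 2 (-0.02). Ankrd1 lies on chromosome 19 (36111961 to 36120099, minus strand).

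Amotl2 encodes an angiomotin-family scaffold that binds YAP at cell junctions, and it is also a target gene. It had 39.6 and 39.0 TPM in knockdown libraries, against 45.3 and 42.9 TPM in control libraries. The groups did not overlap in TPM but overlapped in counts scaled by library size (log2 fold change -0.13, SE 0.136, 95% interval -0.44 to 0.17, adjusted p = 0.635). It lies on chromosome 9 (102716672 to 102733418, plus strand).

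Lats2 encodes one of the 2 kinases that phosphorylate YAP and TAZ, and is switched on by YAP in return. It had 11.1 and 13.7 TPM in knockdown libraries, against 10.9 and 10.5 TPM in control libraries, with expected counts of 821 and 982 in knockdown libraries and 729 and 710 in control libraries. Both knockdown values were above both controls, 1 of them by a small margin. Its log2 fold change of 0.34 (SE 0.156, 95% interval -0.01 to 0.69) had an unadjusted p of 0.0571 and an adjusted p of 0.251 in edgeR. It did not pass under any of the alternatives tried. The gene lies on chromosome 14 (57689662 to 57758388, minus strand).

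Ajuba, a LIM-domain scaffold that restrains LATS kinases, lies on the same chromosome (54567472 to 54577558, minus strand). It had 69.2 and 85.4 TPM in knockdown libraries and 74.5 and 61.0 TPM in control libraries, which overlapped (log2 fold change 0.21, SE 0.165, 95% interval -0.16 to 0.58, adjusted p = 0.509). Of its 13 tested neighbours within 200 kb, 2 passed the test, Slc7a7 (log2 fold change 0.83, adjusted p = 0.0106) and Rem2 (-1.77, adjusted p = 0.0201), named after their values were seen. They were the only ones called among 51 neighbours of the 10 members (3.92%, beside 5.96% of all genes). A locus named by position lies 29895 bases from the gene (chromosome 14, 54535514 to 54537577, plus strand). It had 5.25 and 15.7 expected counts in knockdown libraries and 0 in both control libraries. The ratio was 6.97 against a floor of 3 counts over the control group, and it was not tested. None of the 8 such loci within 50 kb of a member lay inside one. The only other with counts, near Yap1, had 4.98 and 4.10 in knockdown libraries and 1.11 and 0 in control libraries.

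By TPM, 6 of the 10 members had groups that did not overlap, 2 with knockdown libraries higher (Ptpn14 and Lats2) and 4 with them lower (Yap1, Wwtr1, Amotl2 and Asap1). Over all genes tested the share was 51.6%, with 21.4% higher and 30.2% lower. By absolute log2 fold change Ptpn14 stood at percentile 95.8 of all genes tested and Asap1 at percentile 85.2, while Tead1 and Ankrd1 stood at percentiles 6.89 and 10.4. Ptpn14 also had the fewest counts of the 10.

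**Figure D4:**
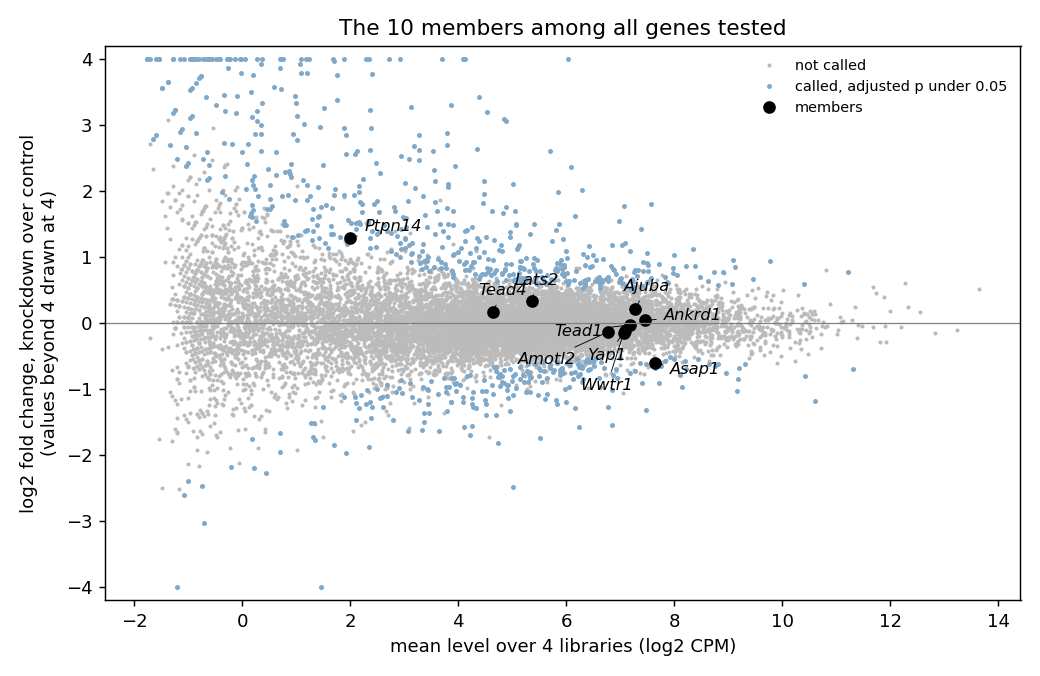
Log2 fold change (knockdown over control) against mean level (log2 CPM over 4 libraries) for all 12821 genes tested, with the 10 members in black and called genes in blue. Ptpn14 lies among the called genes of low level at 1.29, Asap1 on the lower edge at -0.61, and the other 8 members lie within the grey band around 0.

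The promoters found for 7 of the members shared a short sequence. The list holds known targets of YAP and TEAD, so a TEAD motif in them is not independent of how it was made. RefSeq promoters (GRCm38.p6, 250 bases before to 50 after the start) were matched for 7 of the 10 genes. No promoter was found for Tead1, Tead4 and Asap1. All 7 held GGAATG or its reverse complement CATTCC, the 6-base core of the motif that TEAD factors recognise, searched on both strands and alone, with no other motif to overlap. The same was true of 14.7% of all 32851 promoters in the table and of 16.6% of its 27025 genes. Ankrd1 and Ajuba held 2 copies, as did 1.36% of promoters. Among the genes of the wider lists with a promoter in the table, the motif stood in 4 of 16 other target genes (25.0%) and 4 of 16 upstream regulators (25.0%). It also stood in 2 of 14 Hippo kinases and scaffolds (14.3%) and 4 of 6 other TEAD genes and TEAD partners (66.7%). A match does not show binding.

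The matches of the members other than Ptpn14 are shown here, and all sit in genes that did not pass the test. Each line gives the 30 bases around a match, 5′ to 3′ on the gene's strand, with the motif in capitals. They come from chr9:8004720-8004749 (minus strand) for Yap1, chr3:57576029-57576058 (minus) for Wwtr1, chr19:36120037-36120066 and chr19:36119950-36119979 (minus) for Ankrd1, chr9:102717727-102717756 (plus) for Amotl2, chr14:57746102-57746131 (minus) for Lats2, and chr14:54577830-54577859 and chr14:54577808-54577837 (minus) for Ajuba.
Yap1: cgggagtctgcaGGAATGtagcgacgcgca
Wwtr1: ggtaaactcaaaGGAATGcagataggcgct
Ankrd1, distal: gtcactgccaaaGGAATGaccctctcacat
Ankrd1, proximal: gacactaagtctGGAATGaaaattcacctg
Amotl2: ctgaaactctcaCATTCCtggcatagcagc
Lats2: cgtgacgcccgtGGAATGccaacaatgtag
Ajuba, distal: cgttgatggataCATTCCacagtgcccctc
Ajuba, proximal: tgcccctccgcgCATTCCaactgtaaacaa

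The match in Ptpn14 began 146 bases before the start, close to those in Yap1 (141 bases) and Wwtr1 (136 bases from the more distal of its 2 overlapping promoters). The Ankrd1 matches began at 210 and 123 bases, those of Ajuba at 186 and 164 bases and that of Amotl2 at 65 bases before the start. The Lats2 match began 4 bases after it, and a second Lats2 promoter held none. All these distances are from RefSeq starts. By the GENCODE spans given above, the matches of Ankrd1, Amotl2 and Lats2 lie inside the gene. Of the 7 genes with a match, Ptpn14 rose and 6 did not pass the test.

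**Figure D5:**
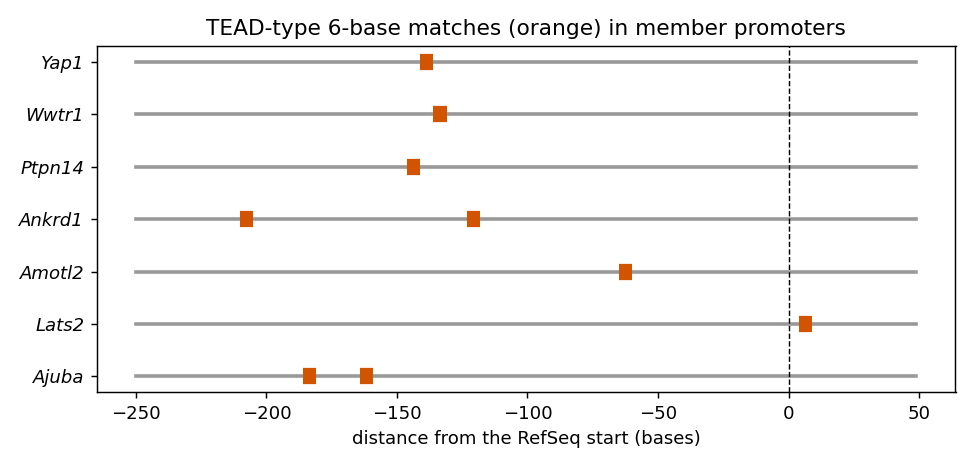
Position of GGAATG or CATTCC (orange) in the promoters of 7 members, as distance in bases from the RefSeq start (dashed line). The matches of Ptpn14, Yap1 and Wwtr1 lie between 146 and 136 bases before the start, and that of Lats2 lies just after it.

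Few other genes of the pathway passed the test. Of 67 further genes listed by role, 66 were in the tables and 52 had enough counts to test, of which 2 rose, 2 fell and 48 did not pass (7.69% called, beside 5.96% of all genes). Their median log2 fold change was -0.12, beside -0.01 over all genes. Of the 52, 34 were below 0, beside 6480 of all 12821 genes tested. Of the 17 tested Hippo kinases and their scaffolds, 1 rose and 16 did not pass. Of 15 tested upstream regulators at junctions 1 rose and 14 did not pass. Of 17 other tested target genes 2 fell and 15 did not pass. All 3 tested genes on the list of other TEAD genes and TEAD partners (Tead2, Tead3 and Vgll4) did not pass. Vgll4, the most abundant of them, had 99.9 and 127 TPM in knockdown libraries and 98.5 and 105 TPM in control libraries (log2 fold change 0.21, SE 0.1475, adjusted p = 0.4575 in edgeR).

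Stk4 (MST1), a kinase that activates LATS, was the kinase that rose. It had 27.9 and 30.3 TPM in knockdown libraries, against 17.3 and 15.6 TPM in control libraries, with no overlap (log2 fold change 1.05, SE 0.139, 95% interval 0.74 to 1.36, adjusted p = 0.00274 in edgeR). The adjusted p was 0.0503 with limma on log2(TPM + 1), where its log2 fold change was 0.79. Its mean transcript length was also larger, 4703 and 4809 bases in knockdown libraries against 4125 and 4458 bases in control libraries. Its partner kinase Stk3 (MST2) had 14.2 and 13.8 TPM in knockdown libraries and 13.8 and 20.04 TPM in control libraries (log2 fold change -0.20, SE 0.184, adjusted p = 0.587). Mob1a, the LATS co-factor with the highest level on this list, had 101 and 115 TPM in knockdown libraries and 99.6 and 101 TPM in control libraries (adjusted p = 0.523).

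Lats1, the other YAP kinase, had 11.8 and 12.5 TPM in knockdown libraries, against 18.0 and 16.2 TPM in control libraries. The groups did not overlap, and the log2 fold change of -0.43 (SE 0.141, 95% interval -0.75 to -0.11) had an adjusted p of 0.113, so it was not called. Nf2, which encodes the upstream activator merlin, had 27.5 and 24.6 TPM in knockdown libraries and 38.7 and 39.6 TPM in control libraries (log2 fold change -0.46, SE 0.139, adjusted p = 0.0900). Stk3, Lats1 and Nf2 were named after their values were seen.

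Crb3, a component of the apical Crumbs complex, rose to 47.9 and 52.0 TPM in knockdown libraries, against 31.3 and 27.7 TPM in control libraries (log2 fold change 0.76, SE 0.170, 95% interval 0.38 to 1.14, adjusted p = 0.0314). It did not pass when knockdown 2 or control 2 was left out (adjusted p = 0.0912 and 0.0678). Beside it, of 6 cholangiocyte markers Epcam rose (20.6 TPM in both knockdown libraries, against 11.1 and 9.30 TPM in control libraries, adjusted p = 0.00919) and Spp1 fell (262 and 237 TPM in knockdown libraries, against 366 and 406 TPM in control libraries, adjusted p = 0.0347). The list summed to 302 and 278 TPM in knockdown libraries and 399 and 438 TPM in control libraries. Spp1 made up most of that sum. The other 5 markers, added up after the values were seen, summed to 39.5 and 40.5 TPM in knockdown libraries and 32.8 and 31.9 TPM in control libraries. Among them Sox9 was lower, with 13.8 and 14.8 TPM in knockdown libraries against 19.3 TPM in both control libraries (adjusted p = 0.1645 in edgeR). Krt7 was higher, with 4.13 and 4.46 TPM in knockdown libraries against 2.09 and 2.68 TPM in control libraries (adjusted p = 0.0585). Krt19 overlapped between the groups in TPM but not in expected counts. These were 13 and 11 in knockdown libraries against 3 and 4 in control libraries (adjusted p = 0.118 in edgeR). Cftr had 4 and 3 expected counts in knockdown libraries and 0 in both control libraries. Their part in the Crb3 result was not tested. The atypical cadherin Fat1, the most abundant gene on the junction list, had 52.7 and 35.96 TPM in knockdown libraries and 61.3 and 58.6 TPM in control libraries (log2 fold change -0.46, SE 0.158, adjusted p = 0.128).

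Among the other target genes, the EGF receptor ligand Areg fell to 12.2 and 10.1 TPM in knockdown libraries, against 29.5 and 46.0 TPM in control libraries (log2 fold change -1.70, SE 0.235, 95% interval -2.23 to -1.17, adjusted p = 0.00348). Nt5e, the ectonucleotidase CD73, fell to 25 and 20 expected counts in knockdown libraries, against 72 and 78 in control libraries (log2 fold change -1.72, SE 0.301, 95% interval -2.40 to -1.04, adjusted p = 0.0107), a call that ended with limma on log2(TPM + 0.1) (adjusted p = 0.0575). Both had groups that did not overlap. Igfbp3, the most abundant gene on this list, had 310 and 241 TPM in knockdown libraries and 288 and 341 TPM in control libraries (log2 fold change -0.13, SE 0.160, adjusted p = 0.689).

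The classic secreted targets Ctgf (CCN2) and Cyr61 (CCN1), named after their values were seen, did not pass. Ctgf had 156 and 177 TPM in knockdown libraries and 178 and 226 TPM in control libraries (log2 fold change -0.22, SE 0.149, 95% interval -0.55 to 0.12, adjusted p = 0.440), and its expected count was whole in 1 library only. Cyr61 had 123 and 206 TPM in knockdown libraries and 94.9 and 234 TPM in control libraries. In each group library 1 was the low one and library 2 the high one (log2 fold change 0.07, SE 0.353, 95% interval -0.72 to 0.86, adjusted p = 0.937). With a replicate block its log2 fold change was 0.15 (SE 0.181, adjusted p = 0.744 in edgeR). Between the 2 controls Cyr61 differed by 1.25 on the log2 scale, percentile 97.3 of all genes tested by size, and between the 2 knockdown libraries by 0.75. Leaving out control 2 gave it a log2 fold change of 0.83, where it did pass, and leaving out control 1 gave -0.43. Leaving out knockdown 1 gave 0.40, and leaving out knockdown 2 gave -0.35. Its direction thus turned with the library left out, in either group. Ankrd1 differed by 0.51 on that scale between the controls and by 0.12 between the knockdown libraries.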

How the data were processed

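The submitters' processing notes name FastQC, STAR, RSEM, DESeq2, GRCm38 and mm10, without versions or roles. A directional kit was used, per the labels' protocols, and the strand setting is not given in the sources used here. Per the file headers, the authors deposited for each of 115821 features (54838 genes and 60983 loci named by position) an expected count, a TPM value and a transcript length weighted over isoforms. A deposited expected count splits a read among the features it fits. The deposited TPM values have one total in every library.

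Expected counts were rounded. The main test was edgeR's quasi-likelihood F-test (edgeR 4.0.16, R 4.3.3) with the group as the only term, TMM and filterByExpr, adjusted by Benjamini-Hochberg over the 12821 genes tested, at a threshold of 0.05. SEs came from the F statistic, and intervals are 95%. Residual degrees of freedom were 2 and prior ones 7.52. An exact permutation of 2 against 2 libraries cannot go below p = 0.333, so none was used. Coordinates are from GENCODE M21 (GRCm38), matched without version, and promoters from RefSeq. The 2 libraries of a group differed beyond counting noise (mean chi-square 23.6 a gene between knockdown and 26.0 between control libraries), so each was kept as a sample. Alternatives were DESeq2 1.42.0 and its size factors, other filters, limma 3.58.1 on log2(TPM + 1) and log2(TPM + 0.1), a replicate block and leaving out each library.

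The members and lists were chosen with earlier results of these data known. Besides Setdb1 and the members, the genes named by rule were the called genes of the wider lists and the most abundant gene of each list. Others are marked as named after their values were seen.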

Additional observations from a re-analysis of the deposited data

How the results depend on the processing

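Ptpn14 (log2 fold change 0.36 to 1.43) and Asap1 (-0.74 to -0.49) kept their direction in all 12 alternatives and each passed in 8, and the other 8 members passed in none. With no filter on low counts edgeR called 0 genes, members and pathway genes included (3379 of all genes had an unadjusted p under 0.05), whereas DESeq2 on the filtered genes called 896. On log2(TPM + 1) limma called 245 genes higher and 89 lower, with 0 members and, of the pathway list, 1 higher and 2 lower, and on log2(TPM + 0.1) 242 higher and 85 lower, with 0 members and, of the pathway list, 2 higher and 1 lower. Leaving out each library gave 543 to 982 genes higher and 197 to 695 lower, the most without control 1. Without knockdown 1 the lower genes numbered 451. Of the members 0 to 1 were then higher and 0 to 1 lower, both 0 without knockdown 2, and of the pathway list 1 to 5 were higher and 2 to 4 lower.

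Signs turned for genes near 0. Across the left-out libraries Wwtr1 ran from -0.30 to 0.029, Tead1 from -0.26 to 0.17, Ankrd1 from -0.20 to 0.32, Tead2 from -0.13 to 0.12, Igfbp3 from -0.33 to 0.042 and Cyr61 from -0.425 to 0.83. In a fit of genes and position-named loci together, added after the data were seen, Tead2 stood at 0.0067. Tead3 passed without control 1 (log2 fold change 0.86), Fat1 without knockdown 1 (-0.69) and Cyr61 without control 2 (0.83). The cause of these shifts was not tested.

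The labels do not say whether same-numbered libraries share more than a number. Deviations of same-numbered libraries from their group means correlated at -0.23 over 10722 genes. A replicate block gave 584 genes higher and 278 lower with the same count of members, 1 higher and 1 lower. With the numbers crossed, added after the data were seen, 1352 genes were higher and 987 lower, with 6 and 7 of the pathway list. Ptpn14, with 46 and 45 control counts, had the widest interval of the 10 members.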
